A study of Homo sapiens with 12 samples.

Results

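The 38 genes described here encode proteins that act in G2 and mitosis, from the cyclins and kinases that start division to the proteins of the cleavage furrow. They were chosen by symbol from the 57500 rows of the count table, each with 1 row, from a list of names drawn up with earlier results of these data known. RNA sequencing counts were deposited for 12 libraries in 4 groups, each with 3 libraries that the labels call biological replicates. SW480, a line from a primary colorectal tumour, was compared with SW620, a line from a metastasis of the same patient, both untreated and grown in DMEM, to which 10% FBS and 1% penicillin and streptomycin were added. PEO4, an ovarian cancer line kept in RPMI 1640 with the same supplements, was compared between untreated cells and cells given 10 ng/mL recombinant human TGF-β for 6 days. Each line stands for 1 tumour or site, and a difference between SW480 and SW620 is a difference between these cultures. PEO4 and SW groups differ in line and medium, so levels across them are given with no test.

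Cells that approach division raise a shared set of transcripts late in the cycle and destroy many of the encoded proteins at mitotic exit. CDK1 bound to cyclin A or B starts mitosis, the spindle assembly checkpoint holds anaphase until kinetochores are attached, and the anaphase-promoting complex then marks securin and cyclin B for destruction. Many of these genes carry a cell cycle genes homology region (CHR) in the promoter, through which the DREAM complex represses them in resting cells and the MuvB core with B-MYB and FOXM1 activates them later. Their summed RNA in a culture is widely used as a reading of proliferation. In bulk RNA, fewer cells in G2 and mitosis and less of these transcripts per cell cannot be told apart.

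The promoters show what most of these genes share. RefSeq promoter windows (GRCh38.p14, from 250 bases before to 50 bases after the annotated start) were found for 32 of the 38 genes, in 40 windows. AURKA, BIRC5, FOXM1, TPX2, TTK and UBE2C had no entry. A CHR core, spelled TTTGAA or TTCGAA and searched on both strands, was in 29 of the 40 windows (72.5%) and in 16.4% of all 35116 windows of the same length. It lay within 50 bases of the start in 60% of the windows of these genes and in 5.01% of all windows. CCAAT, also searched on both strands, was in 77.5% against 34.6%, and both motifs were in 60% against 6.38%. The 8 stretches printed here run from 150 bases before the start to 10 bases from it onward, 5′ to 3′ on the gene's strand, with CHR cores and CCAAT boxes of either strand in capitals. Where a gene had several windows, the stretch comes from the window whose CHR core lies nearest the start. The first 5 belong to the genes with a CHR core that fell most in SW620, and the last 3 (BUB1B, ECT2 and CCNB1) to the genes whose level moved least between the SW lines. They lie as follows: CDC25C at chr5:138331795-138331954 (minus strand), CENPA at chr2:26785906-26786065 (plus strand), NDC80 at chr18:2571407-2571566 (plus strand) and BUB1 at chr2:110678054-110678213 (minus strand). The others are ANLN at chr7:36389712-36389871 (plus strand), BUB1B at chr15:40160919-40161078 (plus strand), ECT2 at chr3:172750576-172750735 (plus strand) and CCNB1 at chr5:69167000-69167159 (plus strand).
CDC25C: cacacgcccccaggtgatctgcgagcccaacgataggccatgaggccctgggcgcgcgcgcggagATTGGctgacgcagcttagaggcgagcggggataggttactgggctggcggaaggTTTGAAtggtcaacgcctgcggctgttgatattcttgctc
CENPA: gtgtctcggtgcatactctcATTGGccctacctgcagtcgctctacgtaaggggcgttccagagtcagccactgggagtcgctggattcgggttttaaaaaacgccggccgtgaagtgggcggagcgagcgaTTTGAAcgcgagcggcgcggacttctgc
NDC80: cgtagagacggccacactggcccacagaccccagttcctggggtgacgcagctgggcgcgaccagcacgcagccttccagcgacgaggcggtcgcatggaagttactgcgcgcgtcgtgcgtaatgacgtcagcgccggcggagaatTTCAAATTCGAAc
BUB1: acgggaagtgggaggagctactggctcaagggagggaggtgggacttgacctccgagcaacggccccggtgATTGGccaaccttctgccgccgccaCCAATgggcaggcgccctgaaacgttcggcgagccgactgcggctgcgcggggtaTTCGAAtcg
ANLN: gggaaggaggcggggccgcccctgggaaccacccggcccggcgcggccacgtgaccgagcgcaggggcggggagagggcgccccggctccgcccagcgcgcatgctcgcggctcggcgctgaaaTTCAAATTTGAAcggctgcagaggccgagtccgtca
BUB1B: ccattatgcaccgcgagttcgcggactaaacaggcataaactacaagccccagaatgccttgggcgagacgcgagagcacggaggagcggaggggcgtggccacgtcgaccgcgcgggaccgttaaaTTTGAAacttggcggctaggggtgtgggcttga
ECT2: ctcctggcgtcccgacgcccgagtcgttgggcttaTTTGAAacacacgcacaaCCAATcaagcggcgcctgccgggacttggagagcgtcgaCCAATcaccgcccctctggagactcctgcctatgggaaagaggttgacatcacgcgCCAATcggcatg
CCNB1: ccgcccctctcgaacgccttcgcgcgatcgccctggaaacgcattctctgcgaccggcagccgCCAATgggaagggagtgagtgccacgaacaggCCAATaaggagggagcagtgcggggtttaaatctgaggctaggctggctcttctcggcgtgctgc

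In the CDC25C stretch a CCAAT box on the opposite strand begins 85 bases before the start and a CHR core follows 30 bases before it. ANLN and NDC80 each hold 2 adjoining CHR cores. CCNB1 has a pair of CCAAT boxes and no CHR core of these letters in its window, and ECT2 has another core 34 bases after the start, beyond the printed stretch. Among genes with a window, a CHR core was in 9 of 14 that fell in SW620 and in 15 of 17 that did not pass the test there. Counted by gene over all windows, the share with a core was 19.5%. AURKA, FOXM1, TPX2, TTK and UBE2C also fell but had no window, and the difference between the 2 sets was not tested. AURKB, CCNA2, CCNB1, KIF20A and PTTG1 had only CCAAT, and CENPE and KIF2C had neither. A match is a run of letters and not a measured binding site.

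**Figure D1:**
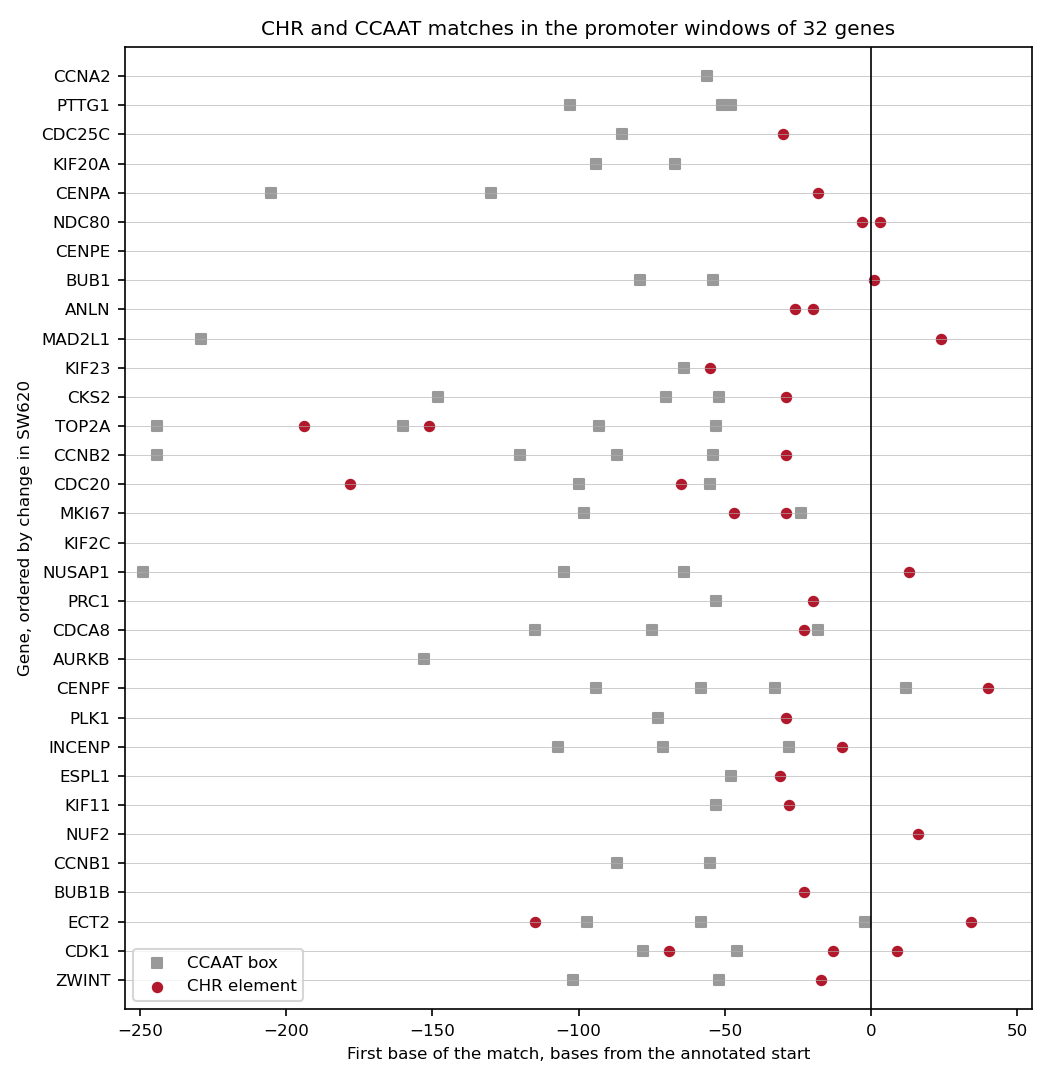
Positions of CHR cores (red circles) and CCAAT boxes (grey squares) in the promoter windows of 32 genes, as the first base of each match counted from the annotated start (0), with 1 window per gene and genes ordered by the change in SW620. Most red circles sit just upstream of the start: 17 of the 25 genes with a core have one that begins 60 to 1 bases before it. For a gene with several windows, the window whose core lies nearest the start was chosen, so closeness to the start is partly built in.

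Total counts ran from 14531420 to 22028956 per library, and 92.7% to 96.2% of counts fell in protein-coding genes. The lowest count of any of the 38 genes in any library was 73 (CDC25C in SW620), so all 38 entered both tests. Levels below are counts-per-million values with totals scaled by TMM factors (CPM), except for CDX2, PAX8 and the sums of lineage and cell type markers. Those use plain totals. CDX2, an intestinal transcription factor, was at 20.3 ± 2.25 CPM in SW480 and 20.4 ± 1.84 in SW620 (SD, n = 3 each) and at 3 counts or fewer in each PEO4 library. PAX8, a factor of the ovarian and Müllerian lineage, was at 509 ± 9.89 CPM in PEO4 control and 513.5 ± 45.0 with TGF-β. It was also present in the SW lines, at 48.8 ± 18.5 CPM in SW480 and 52.9 ± 18.3 in SW620. In SW620 replicate 3, 5 genes otherwise near 0 in the SW lines gave an estimate of 1.01% PEO4-like reads, which amounts to 0.289% to 1.66% of the counts of the 38 genes there.

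Within each group the 38 genes moved up and down together from library to library. In SW480 replicate 2, 0 of 38 genes were above their own group's mean, with a median deviation of -0.28 on the log2 scale, while 37 and 36 were above it in replicates 1 and 3. In SW620 the counts were 25, 3 and 34, and replicate 2 was again the low one with a median deviation of -0.31. In PEO4 the third library of each group was low, with 1 of 38 above the mean in control (-0.18) and 1 of 38 with TGF-β (-0.24). SW480 replicate 2 and SW620 replicate 2 also had the smallest totals (14712953 and 14531420) and the lowest protein-coding shares (93.9% and 92.7%); the part of these in the shift was not tested. The third PEO4 libraries had totals of 20457751 and 21523555, within the range of the others. Results are given below with and without these libraries.

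**Figure D2:**
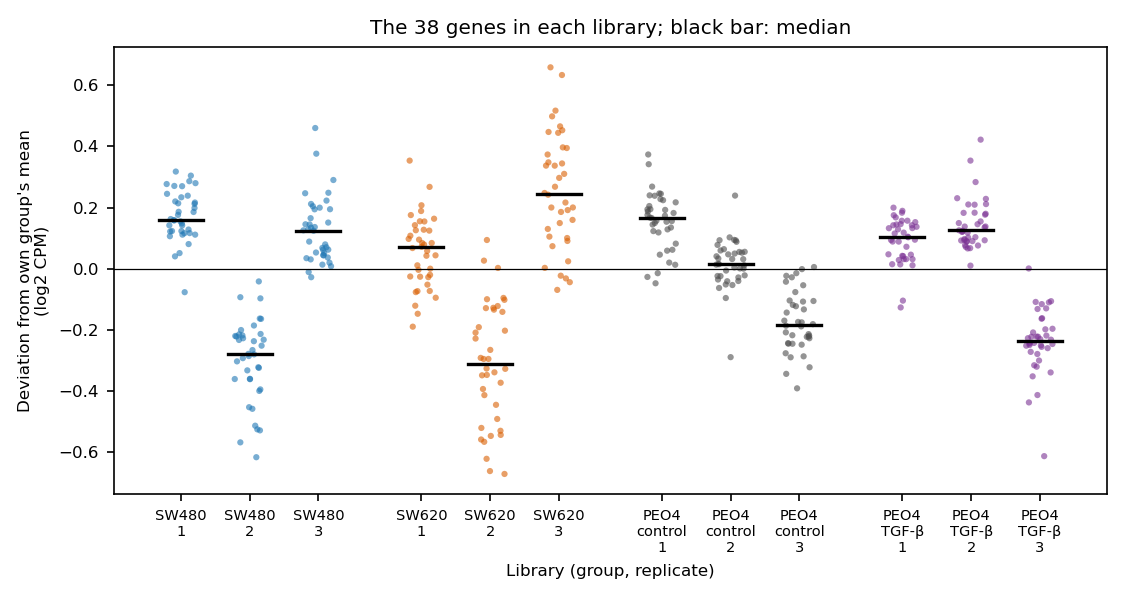
Deviation of each of the 38 genes from the mean of its own group, in log2 CPM, by library (points; black bars are medians). SW480 replicate 2, SW620 replicate 2 and the third library of each PEO4 group lie below the 0 line almost as a block.

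In SW620 the G2 and mitosis genes were mostly lower than in SW480. Of the 38, 19 fell and 1 rose (ZWINT), while 18 did not pass the threshold of 0.05 for the adjusted p of edgeR's quasi-likelihood test (Benjamini-Hochberg over 20941 genes). Over all genes tested, 17.0% fell, 13.5% rose and 30.5% passed in either direction, so the 50% of these genes that fell lies well above the share of all genes. The median log2 fold change (SW620 over SW480) was -0.79, with a range from -1.48 (CCNA2) to 0.50 (ZWINT), against a median of 0.03 over all genes tested, and 35 of 38 values were below 0. The 3 libraries of each line did not overlap for 24 of 38 genes (63.2%), against 44.2% of all genes. Summed over the 38 genes, CPM was 5067, 3734 and 4781 in the SW480 libraries and 3000.5, 2393.5 and 3242 in the SW620 libraries. Without both libraries numbered 2, a choice made after seeing them low, 25 fell and 2 rose. Dropping single libraries moved the number that fell between 11 (without SW480 replicate 1) and 26 (without SW620 replicate 3), with 12 without SW620 replicate 1.

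**Figure D3:**
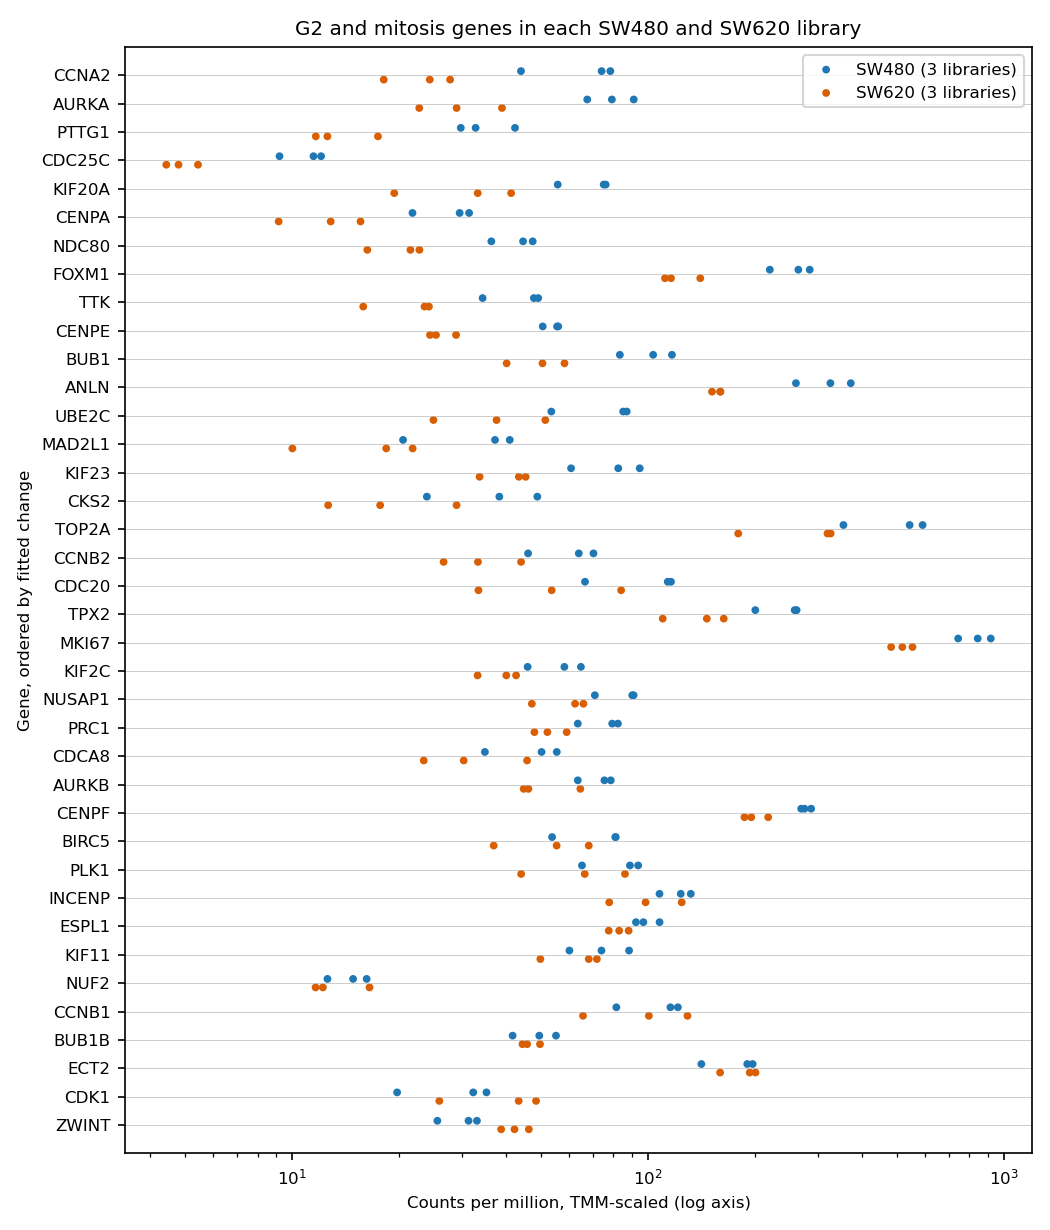
CPM of the 38 genes in each SW480 (blue) and SW620 (orange) library on a log axis, ordered from the strongest fall at the top. Orange points lie left of blue points for most genes, and the order turns only in the lowest rows, where CDK1 and ZWINT sit.

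Among the cyclins, CDK1 and its activators, 3 of 6 fell. Over all genes tested 17.0% fell, a share to be read beside the count of each small role group below. CCNA2, which encodes the cyclin that pairs with CDK2 in S phase and with CDK1 in G2, was at 78.4, 44.0 and 74.1 CPM in the SW480 libraries and 24.4, 18.1 and 27.8 in the SW620 libraries. The groups did not overlap, and CCNA2 fell by 1.48 on the log2 scale (SE 0.25, edgeR adjusted p = 0.00216), the largest change of the 38; the mean was 65.5 ± 18.8 CPM in SW480 and 23.4 ± 4.92 in SW620 (SD, n = 3), 2.79-fold higher in SW480. The gene lies at chr4:121816444-121823933, minus strand (GRCh38, GENCODE 29), and 9.08% of its exon bases overlap EXOSC9 on the opposite strand. CDC25C, the phosphatase that removes inhibitory phosphates from CDK1, was at 11.5, 9.22 and 12.1 CPM in the SW480 libraries and 5.44, 4.43 and 4.80 in the SW620 libraries. Again the groups did not overlap, and it fell by 1.16 (SE 0.23, edgeR adjusted p = 0.00450). CCNB2, another B-type cyclin, was at 63.9, 46.0 and 70.3 CPM in the SW480 libraries and 33.3, 26.7 and 44.0 in the SW620 libraries. The libraries of the lines were separate but close, and it fell by 0.79 (SE 0.23, edgeR adjusted p = 0.0285); the call was lost without SW480 replicate 1 (0.126), SW480 replicate 3 (0.128), SW620 replicate 1 (0.143) or SW620 replicate 2 (0.0638), each left out alone, with the adjusted p in parentheses.

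CCNB1, the main mitotic cyclin, did not pass the test. It was at 121, 81.5 and 116 CPM in the SW480 libraries and 101, 65.7 and 129 in the SW620 libraries. The ranges overlapped almost fully, and the log2 fold change was -0.11 (95% interval -0.70 to 0.48, edgeR adjusted p = 0.797). CDK1 itself was at 35.2, 19.7 and 32.3 CPM in the SW480 libraries and 48.5, 25.9 and 43.3 in the SW620 libraries, with a log2 fold change of 0.43 (95% interval -0.20 to 1.07, edgeR adjusted p = 0.290). Its groups overlapped through SW620 replicate 2, and without that library CDK1 passed at 0.0400 with a log2 fold change of 0.71. CKS2, a small CDK-binding subunit, had a log2 fold change of -0.90 (95% interval -1.67 to -0.14, edgeR adjusted p = 0.0737) and passed without SW480 replicate 2 (0.0280) or SW620 replicate 3 (0.00926).

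FOXM1, the transcription factor that drives many of the other 37 genes, fell as well. It was at 285, 220.0 and 265 CPM in the SW480 libraries and 116, 112 and 140.3 in the SW620 libraries. The groups were well apart, and FOXM1 fell by 1.06 (SE 0.18, edgeR adjusted p = 0.00210); 15.9% of its exon bases overlap ITFG2 on the opposite strand. Of the mitotic kinases outside the checkpoint, AURKA, which matures centrosomes and builds the spindle poles, was at 91.2, 67.5 and 79.2 CPM in the SW480 libraries and 29.0, 22.8 and 38.9 in the SW620 libraries. There was no overlap, and AURKA fell by 1.39 (SE 0.22, edgeR adjusted p = 0.00145), a level 2.62-fold higher in SW480; the gene lies at chr20:56369389-56392337, minus strand and has the named pseudogenes AURKAP1 and AURKAP2. PLK1, which acts in mitotic entry and centrosome maturation, had a log2 fold change of -0.34 (95% interval -0.91 to 0.24, edgeR adjusted p = 0.367), with ranges of 65.3 to 93.9 CPM in SW480 and 44.0 to 86.2 in SW620 that overlap.

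Of the 4 checkpoint genes, the kinases BUB1 and TTK fell. BUB1, which recruits checkpoint proteins to kinetochores, was at 117, 83.4 and 103 CPM in the SW480 libraries and 50.5, 40.1 and 58.3 in the SW620 libraries. The groups did not overlap, and it fell by 1.03 (SE 0.20, edgeR adjusted p = 0.00396). TTK (MPS1), the kinase that starts checkpoint signalling, was at 49.2, 34.3 and 47.8 CPM in the SW480 libraries and 23.6, 15.9 and 24.2 in the SW620 libraries. It too was lower in each SW620 library, and fell by 1.04 (SE 0.22, edgeR adjusted p = 0.00627). BUB1B (BUBR1), a part of the complex that inhibits CDC20, was at 55.2, 41.7 and 49.5 CPM in the SW480 libraries and 45.8, 49.7 and 44.4 in the SW620 libraries. These ranges overlapped, with a log2 fold change of -0.07 (95% interval -0.43 to 0.30, edgeR adjusted p = 0.800), the smallest change of the 38. MAD2L1 (MAD2), which binds CDC20 in the same complex, had a log2 fold change of -0.97 (95% interval -1.72 to -0.23, edgeR adjusted p = 0.0528) with overlapping libraries, and passed without SW480 replicate 2 (0.0155) or SW620 replicate 3 (0.0221).

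In the arm that triggers anaphase, securin and the E2 enzyme fell. PTTG1 (securin), which holds separase inactive, was at 32.8, 29.8 and 42.3 CPM in the SW480 libraries and 12.6, 11.7 and 17.4 in the SW620 libraries. The lines did not overlap, and PTTG1 fell by 1.33 (SE 0.22, edgeR adjusted p = 0.00162); it lies at chr5:160421822-160428744, plus strand. UBE2C, the ubiquitin-conjugating enzyme of the anaphase-promoting complex, was at 87.2, 53.5 and 85.2 CPM in the SW480 libraries and 37.5, 25.0 and 51.5 in the SW620 libraries. The highest SW620 library lay just under the lowest SW480 library, and UBE2C fell by 0.99 (SE 0.28, edgeR adjusted p = 0.0281); the call was lost without SW480 replicate 1 (0.126), SW480 replicate 3 (0.0994) or SW620 replicate 1 (0.129). CDC20, the activator of that complex, had a log2 fold change of -0.79 (95% interval -1.55 to -0.03, edgeR adjusted p = 0.110) and passed without SW620 replicate 3 (0.0123). ESPL1 (separase), the protease that cuts cohesin, had a log2 fold change of -0.26 (95% interval -0.60 to 0.08, edgeR adjusted p = 0.236), although its libraries did not overlap.

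The chromosomal passenger complex corrects faulty attachments and marks the division plane. Over all genes tested, 30.5% passed in either direction, and 4 genes are too few to tell 0 calls from that share. Of the 4 subunits of this complex, 0 passed the edgeR test and 1 (AURKB) had an unadjusted p under 0.05. With DESeq2, 0 of them passed as well, while AURKB passed with total counts (0.0213), with at least 10 counts in every library (0.0413) and with all 12 libraries in 1 model (0.0302), and AURKB, BIRC5 and CDCA8 passed with the replicate block (edgeR adjusted p 0.00306 to 0.00545). The kinase AURKB had a log2 fold change of -0.48 (95% interval -0.91 to -0.06), the scaffold INCENP of -0.27 (-0.73 to 0.18), borealin (CDCA8) of -0.50 (-1.10 to 0.11) and survivin (BIRC5) of -0.43 (-1.0 to 0.14). Their edgeR adjusted p values ran from 0.0842 to 0.351, and each had overlapping libraries. All 4 values were below 0. Without SW620 replicate 3, AURKB (adjusted p 0.0138) and CDCA8 (0.0251) passed.

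The centromere and kinetochore genes split. CENPA, the histone variant that marks the centromere, was at 29.6, 21.8 and 31.4 CPM in the SW480 libraries and 12.8, 9.17 and 15.6 in the SW620 libraries. The groups did not overlap and CENPA fell by 1.14 (SE 0.24, edgeR adjusted p = 0.00584). CENPE, the kinetochore motor that carries chromosomes to the spindle equator, was at 55.5, 50.6 and 56.0 CPM in the SW480 libraries and 28.9, 24.4 and 25.4 in the SW620 libraries. Its libraries lay close together within each line, and it fell by 1.04 (SE 0.15, edgeR adjusted p = 0.000789), the smallest adjusted p of the 38. NDC80 (HEC1), which binds microtubules at the kinetochore, was at 47.4, 36.3 and 44.6 CPM in the SW480 libraries and 22.8, 16.3 and 21.5 in the SW620 libraries. It was lower in each SW620 library and fell by 1.08 (SE 0.19, edgeR adjusted p = 0.00228).

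ZWINT, which links the outer kinetochore to the RZZ complex, went the other way. It was at 33.1, 25.6 and 31.3 CPM in the SW480 libraries and 42.2, 38.7 and 46.3 in the SW620 libraries. Each SW620 library was above each SW480 library, and ZWINT rose by 0.50 (SE 0.16, edgeR adjusted p = 0.0461); it lies at chr10:56357228-56361275, minus strand. The call was lost in 8 of 16 alternatives, among them without SW480 replicate 1 (0.0924), SW480 replicate 2 (0.164), SW480 replicate 3 (0.152), SW620 replicate 1 (0.120) or SW620 replicate 3 (0.104). NUF2, the partner of NDC80 in its complex, had a log2 fold change of -0.11 (95% interval -0.58 to 0.36, edgeR adjusted p = 0.732), with overlapping libraries. CENPF, a large kinetochore and nuclear matrix protein, had a log2 fold change of -0.47 (95% interval -0.84 to -0.11, edgeR adjusted p = 0.0521) with libraries that did not overlap. It passed with DESeq2 and without both libraries numbered 2.

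Among the spindle motors and microtubule-associated proteins, 2 of 4 fell. TPX2, which activates AURKA and nucleates microtubules, was at 258, 200.3 and 262 CPM in the SW480 libraries and 146, 110.0 and 163 in the SW620 libraries. The groups did not overlap, and it fell by 0.78 (SE 0.20, edgeR adjusted p = 0.0185); the call was lost without SW480 replicate 1 (0.113), SW480 replicate 3 (0.0970) or SW620 replicate 1 (0.0932). KIF2C (MCAK), which depolymerises microtubules at centromeres, was at 64.8, 45.9 and 58.2 CPM in the SW480 libraries and 40.0, 33.2 and 42.6 in the SW620 libraries. It fell by 0.54 (SE 0.18, edgeR adjusted p = 0.0492), with groups separated by a narrow gap, and the call was lost without SW480 replicate 1 (0.274), SW480 replicate 3 (0.169), SW620 replicate 1 (0.172) or SW620 replicate 2 (0.137). NUSAP1, a microtubule bundler, had a log2 fold change of -0.52 (95% interval -0.94 to -0.11, edgeR adjusted p = 0.0609) with separate libraries and passed without SW480 replicate 2 (0.0446) or SW620 replicate 3 (0.0392). Its count is uncertain, since 62.2% of its exon bases are shared with AC087721.2 on the same strand. KIF11 (Eg5), which pushes the spindle poles apart, had a log2 fold change of -0.23 (95% interval -0.69 to 0.23, edgeR adjusted p = 0.447) with overlapping libraries.

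The genes of the central spindle and cytokinesis fell except for ECT2, with 4 of 5 past the test. KIF20A (MKLP2), which carries the passenger complex to the midzone, was at 76.1, 55.8 and 75.1 CPM in the SW480 libraries and 33.2, 19.4 and 41.3 in the SW620 libraries. It fell by 1.14 (SE 0.27, edgeR adjusted p = 0.0112) with no overlap, and the call was lost without SW480 replicate 1 (0.0582) or SW620 replicate 1 (0.0609). KIF23 (MKLP1), the motor of the centralspindlin complex, was at 94.8, 60.8 and 82.5 CPM in the SW480 libraries and 45.3, 33.6 and 43.4 in the SW620 libraries. It fell by 0.96 (SE 0.21, edgeR adjusted p = 0.00689) with no overlap, and the call was lost without SW480 replicate 1 (0.0541). ANLN (anillin), the scaffold of the contractile ring, was at 372, 261 and 326 CPM in the SW480 libraries and 151, 159.8 and 159.6 in the SW620 libraries. The SW620 libraries lay close to each other and well below SW480, and ANLN fell by 1.02 (SE 0.18, edgeR adjusted p = 0.00278).

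PRC1, which bundles antiparallel microtubules of the midzone, was at 82.3, 63.5 and 79.4 CPM in the SW480 libraries and 52.2, 48.0 and 59.1 in the SW620 libraries. The lines did not overlap and it fell by 0.50 (SE 0.17, edgeR adjusted p = 0.0497), the weakest call of the 38, lost without SW480 replicate 1 (0.264), SW480 replicate 3 (0.198), SW620 replicate 1 (0.213) or SW620 replicate 2 (0.132). In PRC1, 58.4% of exon bases are shared with AC068831.7 and PRC1-AS1, so its count is uncertain. ECT2, which activates RhoA at the furrow, was at 197, 141 and 190.2 CPM in the SW480 libraries and 201, 159.5 and 193 in the SW620 libraries. Its ranges overlapped almost fully, and the log2 fold change was 0.07 (95% interval -0.37 to 0.50, edgeR adjusted p = 0.832).

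MKI67 (Ki-67), the protein that coats mitotic chromosomes and is stained to count cycling cells, was at 919, 744 and 845 CPM in the SW480 libraries and 554, 482 and 519 in the SW620 libraries. The lines did not overlap, and MKI67 fell by 0.69 (SE 0.19, edgeR adjusted p = 0.0205); the call was lost without SW480 replicate 1 (0.152), SW480 replicate 3 (0.105) or SW620 replicate 1 (0.0911). TOP2A, the topoisomerase that untangles sister chromatids, was at 591, 354 and 544 CPM in the SW480 libraries and 319.6, 179 and 326 in the SW620 libraries. Its libraries did not overlap either, but with a log2 fold change of -0.85 (95% interval -1.50 to -0.20) it missed the threshold (edgeR adjusted p = 0.0512). It passed without SW480 replicate 2 (0.0272) or SW620 replicate 3 (0.0341), and with DESeq2.

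**Figure D4:**
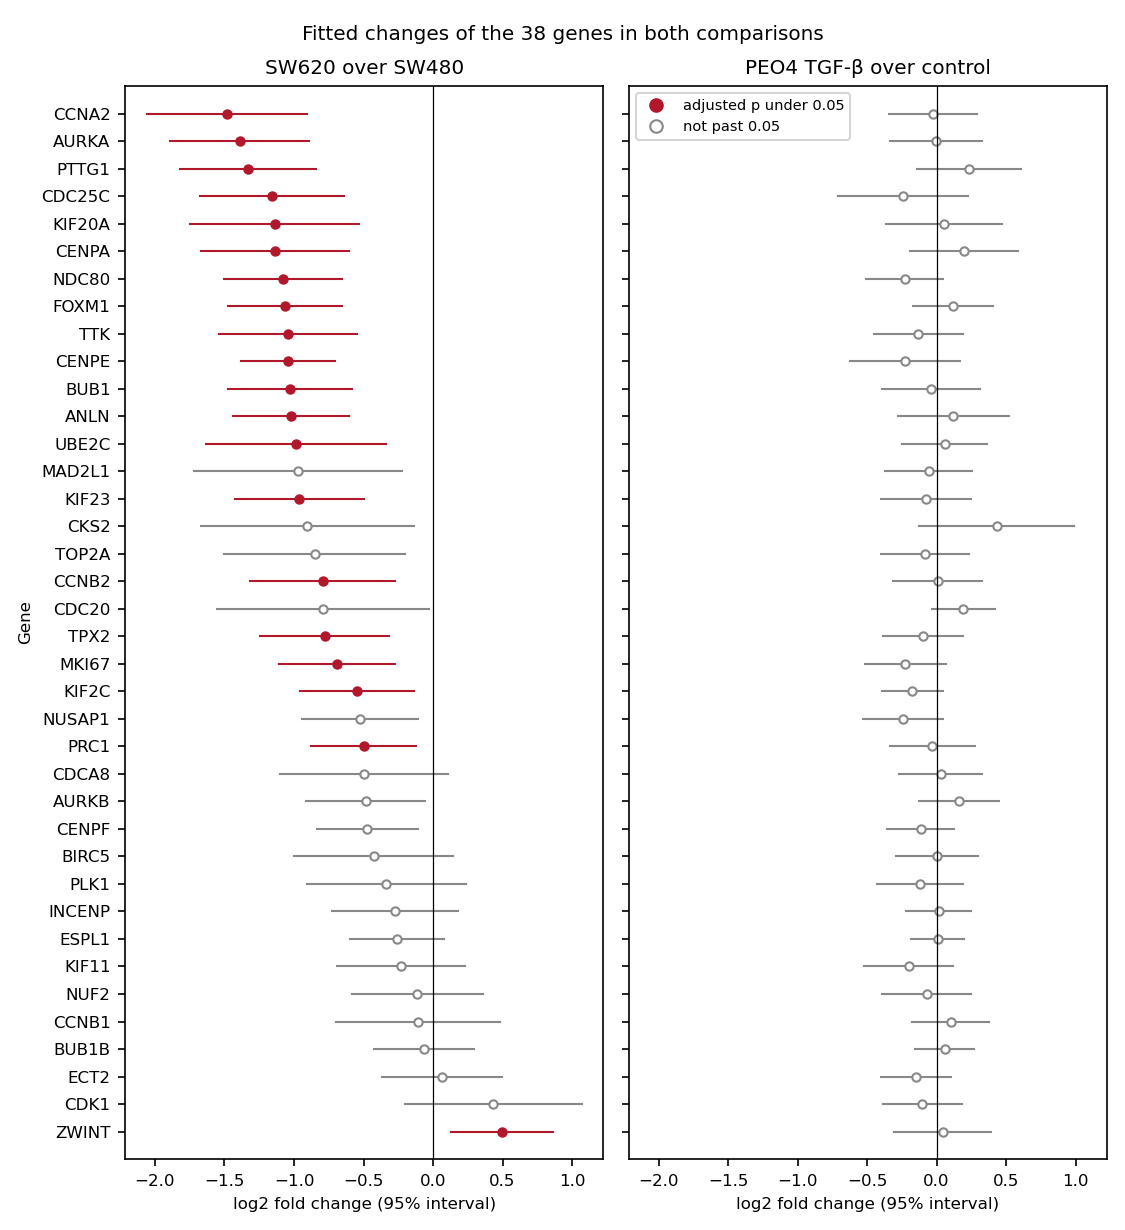
Log2 fold change with 95% interval of the 38 genes, SW620 over SW480 (left) and PEO4 with TGF-β over control (right), on the same axis. Filled red points passed an adjusted p of 0.05: 20 on the left, of which only ZWINT lies above 0, and 0 on the right, where all 38 intervals include 0.

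Of the 20 calls, 11 held under each of 16 other ways to fit the data (ANLN, AURKA, BUB1, CCNA2, CDC25C, CENPA, CENPE, FOXM1, NDC80, PTTG1 and TTK), and 9 were lost under at least 1. Beyond left-out libraries, KIF2C, PRC1 and ZWINT also lost their calls with RLE factors, without the low-count filter and with GC correction, MKI67 without the low-count filter, and CCNB2 and UBE2C with GC correction. In the other direction, CENPF, CKS2, MAD2L1 and TOP2A passed with DESeq2, and AURKB, CDC20, CENPF, CKS2, MAD2L1, NUSAP1 and TOP2A passed with all 12 libraries in 1 model. The authors' deposited table called 1 gene higher and 24 lower, among them the same 20 and, in addition, CENPF, CKS2, MAD2L1, NUSAP1 and TOP2A. Exons of 14 of the 38 overlap another annotated gene; outside NUSAP1 and PRC1 the shared part is 0.149% to 15.9% of exon bases, and AURKA, BUB1, CCNB2, CDC20, MKI67 and UBE2C have named pseudogenes, so reads may have been split or shared there. Marker sums of 6 colorectal epithelial genes were 37.9 to 67.2 CPM in SW480 and 246 to 279 in SW620. Those of 6 fibroblast genes were 4.75 to 5.68 and 10.4 to 17.7. The sums of 5 leukocyte genes overlapped, at 1.15 to 2.71 and 1.87 to 13.6. Of the tested genes in these lists, only VIL1, CDH17, LGALS4 and LUM passed in edgeR, all higher in SW620. The 6 ovarian lineage markers summed to 110 to 151 CPM in SW480 and 140 to 162 in SW620. WT1 and MSLN among them passed, both higher in SW620, and the other 4 did not. DCN and PDGFRA in SW480, and PTPRC and MS4A1 there, were at 3 counts or fewer. Their part in the result was not tested.

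Genes whose proteins work as partners were also compared by the ratio of their raw counts within a library, which does not depend on scaling. These pairs were chosen after their values were seen, and the ratios are a description. CCNA2 counts per CDK1 count were 2.25 ± 0.0381 in SW480 and 0.614 ± 0.100 in SW620 (SD, n = 3), with ranges of 2.23 to 2.30 and 0.503 to 0.698. The SW620 ratio lay below that of both PEO4 groups, 0.799 ± 0.0161 in control and 0.842 ± 0.0446 with TGF-β. NDC80 per NUF2 was 2.94 ± 0.0594 in SW480 and 1.53 ± 0.370 in SW620. AURKA per TPX2 was 0.331 ± 0.0258 and 0.214 ± 0.0211. These pairs did not overlap between the SW lines.

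For separase and securin the ratio was larger in SW620: ESPL1 per PTTG1 was 2.90 ± 0.529 in SW480 and 6.12 ± 1.03 in SW620, again without overlap. AURKB per INCENP was 0.599 ± 0.0106 and 0.521 ± 0.0532, and CCNB1 per CDK1 was 3.72 ± 0.361 and 2.53 ± 0.453. Neither of these overlapped between the SW lines. The share of other gene pairs without overlap was not worked out. In PEO4, NDC80 per NUF2 was 1.43 ± 0.164 in control and 1.27 ± 0.0347 with TGF-β, and AURKA per TPX2 was 0.409 ± 0.0291 and 0.438 ± 0.00573. CCNB1 per CDK1 was 3.28 ± 0.232 in PEO4 control and 3.76 ± 0.150 with TGF-β, the only pair whose PEO4 groups did not overlap. A ratio shows that the partners changed unequally and not which of them changed.

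**Figure D5:**
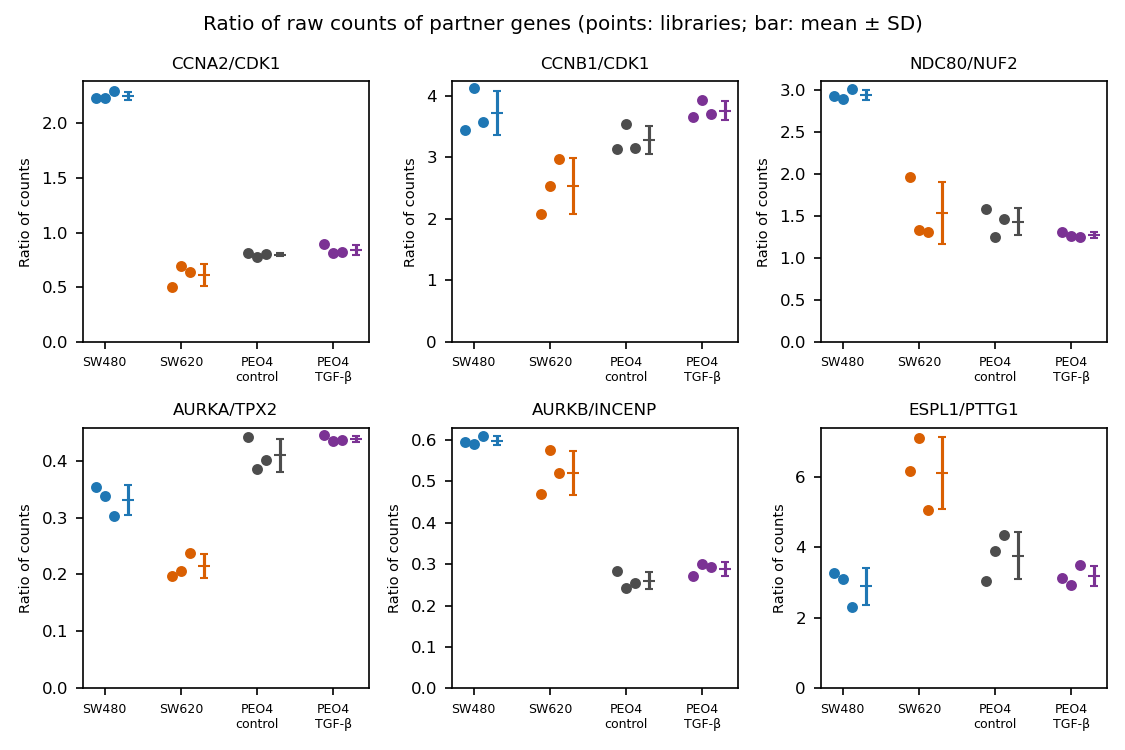
Ratio of raw counts of 6 gene pairs in each of the 12 libraries (points; bars are mean ± SD, n = 3), each axis starting at 0. CCNA2/CDK1 is near 2.25 in SW480 and below 1 in the other 9 libraries, and ESPL1/PTTG1 is highest in SW620.

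Chromosome-wide shifts between the SW lines were set beside the genes. The median log2 fold change of the 770 tested genes of chromosome 10 was 0.45, and 4 of the 38 lie there: ZWINT (0.50) and CDK1 (0.43), with the highest values of the 38, KIF11 (-0.23) and MKI67 (-0.69). Chromosome 16, with PLK1 (-0.34), also had a median of 0.45, and chromosome 15, with BUB1B, CCNB2, KIF23, NUSAP1 and PRC1, had 0.24. Chromosome 20, with AURKA, TPX2 and UBE2C, stood at -0.13, and chromosome 4, with CCNA2, CENPE and MAD2L1, at 0.09. The part of these shifts in the single genes was not tested.

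To compare the genes with each other, CPM was divided by exon length in kilobases, with all 12 libraries scaled together. By group mean, TOP2A was the highest of the 38 in both SW lines, at 83.5, 48.5 and 77.3 CPM per kilobase in the SW480 libraries and 44.0, 23.7 and 46.4 in the SW620 libraries. In replicate 2 of both lines MKI67 and TPX2 were above it, and in SW620 replicate 2 ECT2 was as well. UBE2C had the highest mean in PEO4, at 54.97, 44.0 and 44.8 in control and 53.8, 60.8 and 40.2 with TGF-β. CDC20 was above it in treated replicate 3. CDC25C had the lowest mean in all 4 groups, at 2.96 ± 0.461 in SW480, 1.30 ± 0.159 in SW620, 1.63 ± 0.0706 in PEO4 control and 1.43 ± 0.375 with TGF-β (SD, n = 3). The genes thus span more than an order of magnitude in each group. The median gene was at 16.4 CPM per kilobase in SW480, 11.3 in SW620, 11.6 in PEO4 control and 11.4 with TGF-β, with SW480 the highest.

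In PEO4 the same genes did not pass the test after 6 days of TGF-β. TGF-β slows many epithelial cells in G1. Among TGF-β targets listed with earlier results of these data known, COL7A1 rose by 3.46 on the log2 scale (edgeR adjusted p = 0.000485). LTBP2 rose by 2.74 (0.00145) and FN1 by 2.81 (0.0365), and all 3 encode secreted matrix proteins. SKIL (1.08, edgeR adjusted p = 0.0546) and SMAD7 (0.32, 0.432) did not pass, and FN1 lost its call without PEO4 control replicate 2 (0.188), control replicate 3 (0.0805), treated replicate 1 (0.117) or treated replicate 2 (0.0978), while SKIL passed without control replicate 1 (0.00461) or 3 (0.0462).

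Of the 38 genes, 0 rose and 0 fell in edgeR's quasi-likelihood test over 19064 genes, where 1.27% of all genes rose, 0.991% fell and 2.26% passed in either direction. Unadjusted p values under 0.05 were also 0, as were calls with DESeq2 and in the authors' deposited table. With so few calls over all genes, 0 of 38 lies close to the background. The median log2 fold change was -0.03, with 21 values below 0 and 17 above, from -0.24 (NUSAP1) to 0.43 (CKS2). The 95% interval of each of the 38 genes lay within a 2-fold change in either direction, and for 34 it lay within 1.5-fold; the exceptions were CDC25C, CENPE, CKS2 and PTTG1. Without replicate 3 of both groups, a choice made after seeing them low, and without any single library, the counts were again 0. The sum of the 6 ovarian lineage markers differed between the groups, at 5040 to 8170 CPM in control and 2590 to 4220 with TGF-β. WT1, MSLN and EMX2 fell in the edgeR test, and the other 3 did not pass. The part of these markers was not tested.

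The 5 genes with the smallest unadjusted p show the size of what was seen. NUSAP1 was at 55.5, 48.5 and 41.4 CPM in the control libraries and 43.9, 43.4 and 35.6 in the treated libraries. The groups overlapped, with a log2 fold change of -0.24 (95% interval -0.53 to 0.04, edgeR adjusted p = 0.384). CDC20 was at 83.3, 77.9 and 78.3 CPM in the control libraries and 96.9, 99.0 and 77.8 in the treated libraries, a log2 fold change of 0.19 (-0.04 to 0.42, edgeR adjusted p = 0.384), where the treated libraries 1 and 2 lay above each control and the third just under the lowest control. NDC80 was at 20.7, 19.8 and 16.9 CPM in the control libraries and 17.1, 17.3 and 14.51 in the treated libraries. Here the ranges overlapped narrowly, with -0.23 (-0.51 to 0.05, edgeR adjusted p = 0.391).

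KIF2C was at 40.7, 38.8 and 38.8 CPM in the control libraries and 35.2, 38.5 and 31.1 in the treated libraries. It was the only 1 of the 38 whose groups did not overlap, against 21.5% of all genes, and its log2 fold change was -0.18 (-0.40 to 0.04, edgeR adjusted p = 0.413). MKI67 was at 219.7, 207 and 165 CPM in the control libraries and 185, 176 and 144 in the treated libraries, with overlapping groups and a log2 fold change of -0.23 (-0.52 to 0.06, edgeR adjusted p = 0.424). CKS2, with the largest value, was at 15.4, 13.5 and 10.6 CPM in the control libraries and 19.4, 22.8 and 11.1 in the treated libraries. Treated replicates 1 and 2 lay above each control and replicate 3 among them, and the log2 fold change of 0.43 had an interval of -0.12 to 0.99 (edgeR adjusted p = 0.425). BIRC5 showed the smallest difference, at 81.2, 67.0 and 61.6 CPM in the control libraries and 71.6, 78.8 and 59.6 in the treated libraries, which gives 0.00 (-0.29 to 0.29).

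By role, the other log2 fold changes in PEO4 were as follows. Those of the cyclins and CDK1 partners were -0.03 (CCNA2), 0.10 (CCNB1), 0.01 (CCNB2), -0.10 (CDK1) and -0.24 (CDC25C), and that of FOXM1 was 0.12. Those of the kinases were -0.01 (AURKA) and -0.12 (PLK1), and of the checkpoint genes -0.04 (BUB1), 0.06 (BUB1B), -0.06 (MAD2L1) and -0.13 (TTK). In the anaphase arm they were 0.06 (UBE2C), 0.23 (PTTG1) and 0.01 (ESPL1), and in the passenger complex 0.16 (AURKB), 0.01 (INCENP) and 0.03 (CDCA8). Centromere and kinetochore genes gave 0.20 (CENPA), -0.23 (CENPE), -0.12 (CENPF), -0.07 (NUF2) and 0.04 (ZWINT). Spindle proteins gave -0.20 (KIF11) and -0.10 (TPX2), cytokinesis genes 0.05 (KIF20A), -0.08 (KIF23), -0.03 (PRC1), 0.12 (ANLN) and -0.15 (ECT2), and TOP2A -0.08. Each of these had an interval that includes 0.

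A further 73 genes of G2 and mitosis, with no overlap with the 38, also leaned lower in SW620, with a smaller median. Between the SW lines 27 of 73 fell, 5 rose and 41 did not pass, with a median of -0.43; over all genes tested 17.0% fell and 13.5% rose, so the 5 that rose are a smaller share than among all genes. The largest falls were in SMC4, a condensin subunit, which went from 353 ± 38.3 to 109.6 ± 11.4 CPM (log2 fold change -1.69, edgeR adjusted p = 0.000136), and in CKAP2L, a spindle protein, from 42.4 ± 3.23 to 14.99 ± 2.57 CPM (-1.50, 0.000278). Next came SPC25 (-1.28), SKA3 (-1.28), HMMR (-1.19), CKAP2 (-1.19), SGO2 (-1.14), MELK (-0.97), PLK4 (-0.96) and GTSE1 (-0.77). The remaining 17 that fell, from -0.75 to -0.48, were CDCA2, PIMREG, HJURP, SMC2, MAD2L2, KIF18A, KIF14, ASPM, DSN1, STIL, KIF18B, CEP55, MAD1L1, KIF4A, CDCA3, CENPI and TACC3. The 5 that rose were CENPN (0.96), MIS12 (0.71), CENPH (0.69), PMF1 (0.67) and NSL1 (0.64). Other centromere and kinetochore genes of the same list fell, among them SPC25, SKA3, HJURP, CENPI and SGO2. MIS12, PMF1 and NSL1 belong to the MIS12 complex, while DSN1, another subunit, fell by 0.61. Only 10 of these 32 calls held in each of the 16 alternatives, and MIS12, PMF1, NSL1 and CENPH, but not CENPN, were among the 22 lost under at least 1. In PEO4, 0 of the 73 passed in edgeR and 0 in DESeq2, and 3 had an unadjusted p under 0.05. Over all 19064 genes tested there, 2.26% passed in edgeR, so 0 of 73 lies close to that share. An unadjusted p under 0.05 was found for 3175 of the 19064.

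Of 12 genes of the DREAM complex and its activating form, 2 rose and 2 fell in SW620, or 4 of 12 where 30.5% of all genes passed in either direction, a share near that of all genes. E2F4, the repressor E2F of DREAM, went from 92.0 ± 11.0 to 272 ± 68.6 CPM and rose by 1.56 (edgeR adjusted p = 0.000683), and E2F5 rose by 0.90 (0.0106). The pocket protein RBL1 (p107) fell by 0.58 (0.0260) and the MuvB subunit LIN52 by 0.56 (0.0400). E2F4 was the only 1 of these 4 whose call held in all 16 alternatives. In PEO4, 0 of 12 passed in edgeR and 0 in DESeq2, with 1 unadjusted p under 0.05. With 2.26% of all genes passing in edgeR there, 0 of 12 lies close to the background.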

How the data were processed

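RNA from 12 cell line cultures was sequenced. Per the submitters' processing notes, the tools were Trimmomatic 0.36, STAR 2.5.2b, featureCounts from Subread 1.5.2 and DESeq2 with build GRCh38; the annotation and the use of strand are not given in the sources used here. The authors deposited raw counts per Ensembl gene for the 12 libraries. Per the file headers, the authors' tables of each comparison also hold a signal per library, which equals the count divided by 1 size factor, a log2 fold change, and p-values before and after adjustment; only their calls for the 38 genes are quoted.

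Symbols are those deposited with the counts, and exons, positions and gene types came from GENCODE 29 (56898 of 57500 IDs matched). Each comparison was fitted in edgeR 4.0.16 (R 4.3.3) on its 6 libraries, with filterByExpr, TMM factors and the two-sided quasi-likelihood test. P values were adjusted by Benjamini-Hochberg over all genes tested, with a threshold of 0.05. Intervals are 95% intervals of that model. CPM uses TMM-scaled totals, except for CDX2, PAX8 and the marker sums, which use plain totals. Deviations use log2 CPM with a prior count of 2. P values set the difference between groups against the spread between these cultures, and do not cover variation between tumours or patients. Depth allowed at least 73 counts for each gene. The code was tested on simulated data.

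Members and lists (other G2 and mitosis genes, DREAM, G1 genes, CDK inhibitors and RB, TGF-β targets, lineage and cell type markers) were chosen with earlier results of these data known. All 38 genes are named. Values per library are given for genes past the threshold, for the 5 with the smallest unadjusted p where fewer pass, and for the extremes of change and level; other genes are named where they pass, and TGF-β targets whatever their result, except 1 that is not reported here. Some single-library values of other genes were added after they were seen. Alternatives were DESeq2 1.42.0, RLE factors, total counts, 2 other filters, all 12 libraries in 1 model, a replicate block, a correction for GC content with and without it, and each library left out.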

Additional observations from a re-analysis of the deposited data

How the results depend on the processing

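The median of the 38 genes stayed within the spread between replicates in each alternative, from -0.96 to -0.57 between the SW lines and from -0.12 to 0.08 in PEO4 when single libraries were left out. The 19 genes that fell in SW620 became 23 with DESeq2 and 15 with GC correction, and 11 to 26 when single libraries were left out. The 1 that rose became 0 with RLE factors, without the low-count filter or with GC correction, 2 without both libraries numbered 2 (chosen after seeing the data), and 0 to 2 when single libraries were left out. Of the 18 genes not called, 11 were called in some alternative. Over all genes, 6385 calls between the SW lines ranged from 4253 to 7419 when single libraries were left out. In PEO4, 431 calls became 967 with DESeq2, 1457 without the low-count filter, 165 with all 12 libraries in 1 model, 119 without replicate 3 of both groups (chosen after seeing the data), and 72 to 1080 when single libraries were left out. The causes were not tested.

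With the replicate block, 29 fell and 2 rose between the SW lines, with 10667 calls over all genes (29, 2 and 11092 with GC correction and the block); in PEO4 the calls over all genes were 2102, or 2022 with GC correction and the block, where 1 of the 38 fell (MKI67, edgeR adjusted p = 0.0489). Deviations of same-numbered libraries correlated at 0.0159, 0.67 and 0.567 in the SW lines and 0.291, -0.14 and 0.481 in PEO4, and SW480 replicate 1 correlated best with SW620 replicate 3 (0.267), while replicates 2 and 3 of the SW lines correlated best with their own number. The labels do not say that a number marks a shared batch or day, and not every pair correlated, so the block was not used for the main values; whether the numbers mark batches in part was not tested. Total counts as scaling moved the median of all genes between the SW lines from 0.03 to 0.08. With 3 libraries a group and a biological coefficient of variation of 0.274 between the SW lines and 0.152 in PEO4, the spread between libraries limits the precision.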

Other observations

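Of 8 G1 cyclins and their kinases, 3 fell and 1 rose between the SW lines, where 30.5% of all genes passed in either direction: CCND1 went from 3631 ± 1009 CPM in SW480 to 433 ± 92.0 in SW620 (SD, n = 3) and fell by 3.07 on the log2 scale (edgeR adjusted p = 9.84e-05), CCND2 fell by 4.70 (6.68e-06) and CCNE1 by 1.09 (0.00712), while CDK6 rose by 1.43 (0.00131). Of 9 CDK inhibitor and RB genes, 3 fell, 1 rose and 5 did not pass: CDKN1A (p21) went from 84.8 ± 22.6 to 5.05 ± 1.05 CPM and fell by 4.07 (1.04e-05), RB1 fell by 1.88 (0.00121) and CDKN3 by 1.05 (0.00301), and CDKN2A rose by 0.57 (0.0346). CCNE1 lost its call without SW480 replicate 1 (0.0629), and CDKN2A without any SW480 library, SW620 replicate 1 or SW620 replicate 3 (0.0879 to 0.154). In PEO4, CDKN1A rose by 0.99 with TGF-β, from 27.2 ± 2.67 to 54.2 ± 1.91 CPM (edgeR adjusted p = 0.002001). It was the only 1 of the 7 tested CDK inhibitor and RB genes to pass there, where 2.26% of all genes passed. Of the 8 G1 genes, 0 passed in edgeR and 0 in DESeq2, with 1 unadjusted p under 0.05. This 0 of 8 lies close to the share of all genes.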
